A study of Rattus norvegicus with 18 samples.

Results

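Rat pXEN cells that had become vacuolated in medium with 14% BCS were compared with normal pXEN cells by RNA sequencing. The comparison was defined by the sample titles and takes in 6 of the 18 libraries in the series. Of these, 3 came from vacuolated cells that were not sorted (BCS-vacuolated below) and 3 from normal cells. All 6 came from blastocyst-derived cells of the WKY strain, labelled female and given the cell type rat XENP. BCS-vacuolated cells were at passages 41, 32 and 42 (replicates 1, 2 and 3) and were grown in routine culture with 14% BCS, whose letters are not explained in the labels. Normal cells were at passages 37, 40 and 51 in routine culture, and whether that medium also holds BCS is not stated in the sources used here. Unsorted cells that had become vacuolated with 0.5 µM CHIR99021, an inhibitor of the kinase GSK3, were compared too. That group held 3 libraries (passages 37, 41 and 51). The design text states that the samples of a condition were prepared independently, not that each was a separate derivation. Unless another fit is named, the spread behind a p-value was estimated within the 6 groups of all 18 libraries. It is a spread between samples, which may not be separate derivations.

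Extraembryonic endoderm lines a rodent blastocyst's cavity early in development and later forms the parietal and the visceral yolk sac. Parietal endoderm secretes the laminin and collagen IV of Reichert's membrane, whereas visceral endoderm takes up maternal proteins through apical endocytic receptors and digests them in large lysosome-like vacuoles. Lysosomes hold acid hydrolases that reach them through mannose 6-phosphate receptors, and many of their genes are controlled by transcription factors of the MiT/TFE family (TFEB, TFE3, MITF, TFEC), which bind an E-box sequence known as the CLEAR element.

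The strand-specific counts summed to 5863329, 8226037 and 7444684 in BCS-vacuolated libraries 1, 2 and 3, and to 4832688, 4080629 and 5888544 in normal libraries 1, 2 and 3. A pair of genes with clone-style names that the files do not annotate took 45.2 to 49.3% of the counts in BCS-vacuolated cells and 37.6 to 43.6% in normal cells. Genes with a mitochondrial symbol made up 3.29 to 4.32% of the remaining counts in BCS-vacuolated cells and 3.13 to 3.38% in normal cells. The part of the mitochondrial share in the results was not tested, and the count from a fit without the pair is given in the section on processing. Sox17, Gata6 and Gata4, transcription factors of extraembryonic endoderm, were read in all 6 libraries. Sox17 had 508, 716 and 489 CPM in BCS-vacuolated cells, against 446, 606 and 504 CPM in normal cells, and Gata6 had 90.5, 81.8 and 80.2 CPM in BCS-vacuolated cells, against 75.5, 82.6 and 81.9 CPM in normal cells. Gata4 had 305, 369 and 275 CPM in BCS-vacuolated cells, against 393, 461 and 376 CPM in normal cells, and did not pass the test described next (adjusted p = 0.0777), but passed without BCS replicate 2 (0.0257).

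Of 11503 genes tested, 2383 (20.7%) differed between BCS-vacuolated and normal cells at an adjusted p under 0.05 (edgeR's quasi-likelihood test with Benjamini-Hochberg adjustment over all tested genes). In BCS-vacuolated cells 1289 genes (11.2%) were higher and 1094 (9.51%) were lower, and 725 of the genes called changed more than 2-fold. The count of called genes was 1293 without BCS replicate 1 and 1540 without normal replicate 2. The libraries of both groups did not overlap for 4398 genes (38.2%). The 20 highest and 20 lowest differences named below were picked only among such genes. Their lack of overlap was thus set by the choice and is no further evidence. The median log2 difference over all tested genes was -0.0037. These shares are the background for every list below, for which members were counted as risen or fallen only past that threshold. Levels are given as CPM, the counts of a gene relative to the TMM-scaled total of its library, and they compare samples for 1 gene, not genes with each other.

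**Figure D1:**
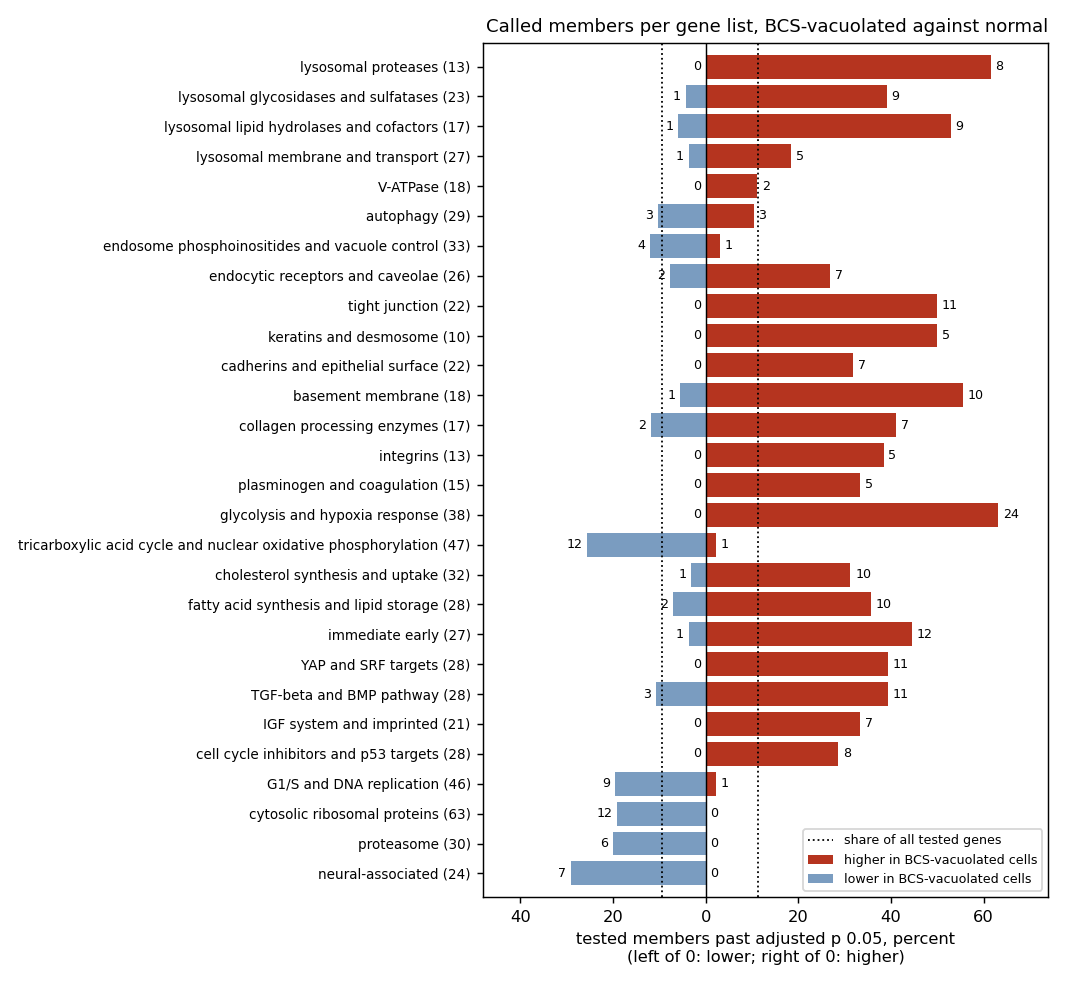
Share of the tested members of 28 gene lists that passed the threshold, in percent, with members higher in BCS-vacuolated cells to the right and members lower to the left. The number at each bar is the count of members, the number after each list name is how many were tested, and dotted lines mark the 11.2% and 9.51% of all tested genes. Of the 28 lists shown, lysosomal proteases and glycolysis had the longest bars to the right, and neural-associated genes the longest to the left. The lists were written with earlier results of these data known. Mesenchymal regulators and markers, with 4 of 6 tested members higher, are not shown.

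The second BCS replicate lay apart from the others. On log2 CPM across genes, which are not independent replicates, BCS replicates 1 and 3 correlated at 0.983, and replicate 2 correlated with them at 0.967 and 0.970 and with normal libraries at 0.952 to 0.965. The first principal component of the 6 libraries held 54.3% of the variance and placed BCS replicates 1, 2 and 3 at -46.3, -14.6 and -35.8 and the normal ones at 26.6, 43.1 and 26.9. To describe this gene by gene, each BCS replicate was left out in turn, and its level was placed on a log2 CPM scale where 0 is the normal mean and 1 the mean of the other BCS replicates. Over the 2608 genes called without replicate 2 (22.7% of those tested), its median position was 0.608, with quartiles at 0.324 and 0.899. The same median was 1.13 for replicate 1 (1293 genes) and 0.908 for replicate 3 (1660 genes). Replicate 2 was thus closer to normal cells for genes that were lower in the other replicates (median 0.542, 1276 genes) and for those that were higher (0.707, 1332 genes). It was also the library at the lowest passage, 32, and the part of passage in its position was not tested. In such bulk libraries, fewer cells of a kind and less RNA of a gene per cell cannot be told apart either.

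**Figure D2:**
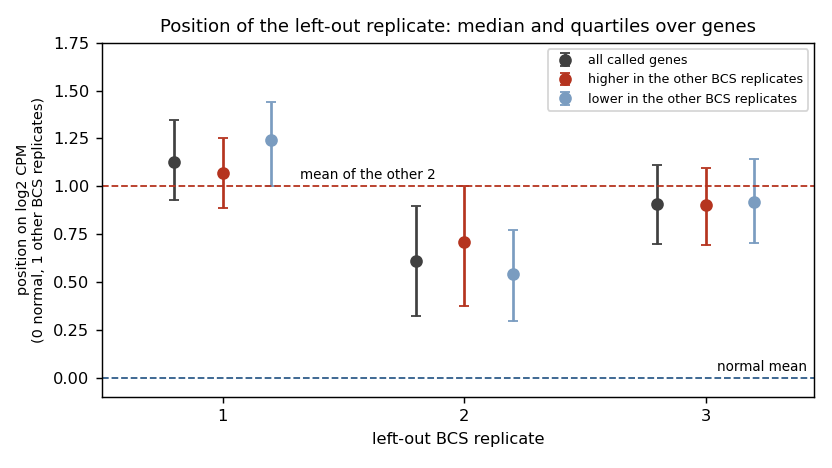
Position of each BCS replicate when left out, on a log2 CPM scale where 0 is the mean of normal cells and 1 the mean of the other BCS replicates; points are medians over the genes called without that replicate and bars are quartiles. Replicate 2 had a median of 0.608 over all its genes, against 1.13 for replicate 1 and 0.908 for replicate 3.

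Genes of the lysosome were counted first. Over all lysosomal lists together, 35 of 100 tested members were higher and 4 lower, with a median log2 difference of 0.40. These lists leave out the genes of the V-ATPase, a proton pump counted on its own below. The count of higher members was 28 to 33 when any 1 of the 6 libraries was left out, and 27 members rose in each of those fits. The count of lower members was 0 without BCS replicate 3, 1 without BCS replicate 1 or normal replicate 2, and 2 without normal replicate 3. Among proteases, 8 of 13 rose and none fell (median 1.04). Ctsb, which encodes the cysteine protease cathepsin B, had 138, 122 and 124 CPM in BCS-vacuolated cells, against 13.8, 13.2 and 18 CPM in normal cells. All BCS libraries, replicate 2 included, were far above all normal ones, a rise of 8.45-fold (log2 3.08 ± 0.16, SE; adjusted p = 1.18e-12). Lgmn, the asparaginyl endopeptidase legumain, had 64.4, 48.9 and 57.2 CPM in BCS-vacuolated cells, against 24, 22.8 and 22.2 CPM in normal cells (2.46-fold, adjusted p = 9.17e-04). Dpp7 and Tpp1, which remove dipeptides and tripeptides from the ends of proteins, rose 2.25-fold and 2.05-fold, and the carboxypeptidases Ctsa and Scpep1 rose 2.18-fold and 2.01-fold. Ctsz, a further cathepsin, had 891, 713 and 908 CPM in BCS-vacuolated cells, against 810.2, 869.6 and 813 CPM in normal cells, and these ranges overlapped (adjusted p = 0.977).

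Among glycosidases and sulfatases, 9 of 23 rose and 1 fell (median 0.42), and the member that fell did not pass without BCS replicate 3 or normal replicate 2 or 3. Gaa, the acid alpha-glucosidase that degrades glycogen, had 17.6, 20.9 and 14.7 CPM in BCS-vacuolated cells, against 2.51, 2.49 and 2.87 CPM in normal cells. All BCS libraries lay far above all normal ones (6.71-fold, log2 2.75 ± 0.30, SE; adjusted p = 5.89e-07). Manba, which removes mannose from glycans, rose 2.92-fold, and the sialidase Neu1 rose 2.59-fold. Arsa, arylsulfatase A, rose 1.82-fold, and Sumf1, which activates sulfatases by modifying their catalytic cysteine, rose 1.61-fold (adjusted p = 0.00193).

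Of 17 genes for lysosomal lipid handling 9 rose and 1 fell (median 0.52). The member that was lower did not pass without BCS replicate 1 or 3 or normal replicate 1 or 3. Npc1 and Npc2, which move cholesterol out of the lysosome, both rose. Npc1 had 65.2, 63.6 and 52.8 CPM in BCS-vacuolated cells, against 29.9, 23.6 and 32.4 CPM in normal cells (2.11-fold, adjusted p = 4.77e-05), and Npc2 was 1.41-fold higher. Asah1, acid ceramidase, rose 1.86-fold, and Psap, the precursor of the saposins that present sphingolipids to hydrolases, rose 1.4-fold. Pld3, a lysosomal member of the phospholipase D family, had 24.2, 25.2 and 25.5 CPM in BCS-vacuolated cells, against 3.59, 7.28 and 7.86 CPM in normal cells. Every BCS library lay above every normal one for Pld3 (3.97-fold, adjusted p = 1.62e-07). Grn, which encodes progranulin, had 24.6, 28.3 and 21.7 CPM in BCS-vacuolated cells, against 2.87, 0.192 and 3.63 CPM in normal cells, with normal replicate 2 almost without reads, and a fitted rise of 10.6-fold (adjusted p = 1.10e-04). Lipa, the acid lipase that releases cholesterol and fatty acids, had 27.4, 30.9 and 31.6 CPM in BCS-vacuolated cells, against 30.8, 27.2 and 31.1 CPM in normal cells, with overlapping ranges (adjusted p = 0.974).

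Membrane proteins of the lysosome gave 5 of 27 higher and 1 lower (median 0.35). The lower member did not pass without BCS replicate 1 or 3 or normal replicate 2 or 3. Lamp1, an abundant glycoprotein of the limiting membrane, had 1131, 864 and 1143 CPM in BCS-vacuolated cells, against 666, 754 and 679.8 CPM in normal cells. Its lowest BCS value, in replicate 2, still exceeded the highest normal value (1.49-fold, adjusted p = 0.00179). Mcoln1 and Tpcn1, cation channels that release calcium or sodium from endolysosomes, rose 1.54-fold and 1.88-fold, and Spns1, a lysophospholipid exporter, rose 1.68-fold. Of the subunits and accessory genes of the V-ATPase, the proton pump that acidifies the lumen, 2 of 18 rose and none fell (median 0.027), a share near the background. That count was 1 when any 1 BCS replicate was left out and 0 without normal replicate 2 or 3, and without BCS replicate 2 there was 1 lower member and the median was -0.094.

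**Figure D3:**
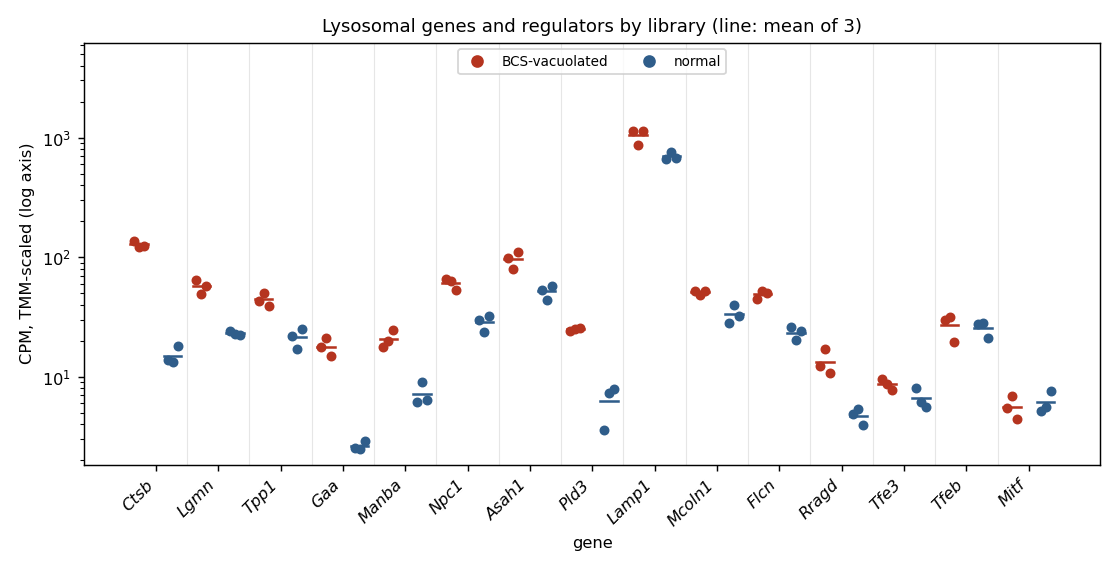
CPM (log axis) of 15 lysosomal genes and regulators in the 3 BCS-vacuolated libraries (red, left) and the 3 normal libraries (blue, right), with lines at the means. The BCS points lie above all normal points from Ctsb to Rragd, and the points of Tfe3, Tfeb and Mitf overlap.

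The transcripts of the 4 factors themselves did not pass against normal cells. Tfeb had 29.8, 31.5 and 19.5 CPM in BCS-vacuolated cells, against 27.6, 28.2 and 21.2 CPM in normal cells (adjusted p = 0.834). Tfe3 (adjusted p = 0.336), Mitf (0.798) and Tfec (0.574) also did not pass, which says nothing of the amount or place of their proteins. Of the whole list 4 of 20 rose and 1 fell (median 0.081), and the lower count was 0 without BCS replicate 1 or 3 or normal replicate 2 and 2 without normal replicate 3. Flcn, which encodes folliculin, a partner of the Rag GTPases in controlling TFEB and TFE3, had 44.9, 51.7 and 50.3 CPM in BCS-vacuolated cells, against 25.8, 20.1 and 24 CPM in normal cells (2.1-fold, adjusted p = 2.64e-05). Rragd, the GTPase RagD and a known target of the same factors, had 12.2, 17.2 and 10.7 CPM in BCS-vacuolated cells, against 4.84, 5.37 and 3.93 CPM in normal cells (2.86-fold, adjusted p = 0.00368). Both genes separated all libraries.

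Igf2r, the mannose 6-phosphate receptor that carries hydrolases to endosomes and also binds IGF2, had 171, 20.8 and 111 CPM in BCS-vacuolated cells, against 6.99, 4.02 and 5.75 CPM in normal cells. BCS replicate 2 stood between the other BCS replicates and the normal cells, at a position of 0.409. The fitted rise was 17.8-fold (log2 4.15 ± 0.73, SE; adjusted p = 0.00178). It was 3.54 on the log2 scale without BCS replicate 1 and 4.64 without replicate 2, and the adjusted p was 0.0593 when the 2 groups were fitted alone.

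Promoters were read for the E-box because MiT/TFE factors bind it. RefSeq sequences (build GRCr8) of 250 bases before and 50 after the start were matched by symbol for 25 of the 35 higher lysosomal members. The letters CACGTG, which read the same on both strands, occurred in 10 of these 25 (40%) and in 8 of 57 matched lysosomal members that were not called (14%). They occurred in 9.68% of 8520 promoters of tested genes and in 6.65% of all 27457 promoters in the table. The longer CLEAR core TCACGTGA, which contains CACGTG, occurred in 5 of the 25 (20%), in 4 of the 57 (7.02%), in 1.83% of promoters of tested genes and in 0.867% of all. Of the 4 lysosomal members that were lower 3 matched, of which 1 (33.3%) held CACGTG and none TCACGTGA. Of 7 matched cholesterol genes that rose, 2 (28.6%) held CACGTG and none held TCACGTGA. These matches describe letters only, and no binding was measured. The windows below show 60 bases around such a match, upstream of the start, for 4 lysosomal genes that rose, 5′ to 3′ on the gene's strand, with CACGTG in capitals.
Lamp1: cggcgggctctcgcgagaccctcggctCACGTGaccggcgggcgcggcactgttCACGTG
Gaa: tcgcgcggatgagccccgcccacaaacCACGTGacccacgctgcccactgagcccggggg
Sumf1: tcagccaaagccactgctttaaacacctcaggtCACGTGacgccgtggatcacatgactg
Igf2r: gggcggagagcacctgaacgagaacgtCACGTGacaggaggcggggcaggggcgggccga
They lie at chr16:83075096-83075155 (minus strand) for Lamp1, chr10:105028261-105028320 (plus) for Gaa, chr4:142716713-142716772 (minus) for Sumf1 and chr1:50526726-50526785 (plus) for Igf2r. The first CACGTG of Lamp1 and those of Sumf1 and Igf2r are followed by A and preceded by T, and so are TCACGTGA, whereas that of Gaa is preceded by C.

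Uptake from the surface was next examined, since lysosomes are filled by endocytosis and autophagy. Of 26 endocytic receptors, adaptors and caveolar genes 7 rose and 2 fell (median 0.53). The count of higher members was 3 without normal replicate 3, and 1 fell without BCS replicate 1 or 3 or any 1 normal replicate. The clathrin heavy chain Cltc and the adaptor subunit Ap2a1, which form coated pits, rose 1.45-fold and 1.83-fold. Lrpap1, a chaperone of endocytic receptors, fell to 244, 288 and 277 CPM in BCS-vacuolated cells, against 418, 459 and 392 CPM in normal cells (1.57-fold lower, adjusted p = 9.17e-04). Lrp2 and Cubn, megalin and cubilin, the large protein scavengers of visceral endoderm, did not pass. Lrp2 had 98.3, 115 and 74.2 CPM in BCS-vacuolated cells, against 49.1, 31.4 and 39 CPM in normal cells (adjusted p = 0.0742). Its groups did not overlap, and it passed with the 2 groups alone (adjusted p = 0.000225), with DESeq2 (0.0232) and without the count filter (2.59e-15). Its log2 rise was 1.29 with the 2 groups alone and 1.27 both with DESeq2 and without the filter. The far smaller p-value without the filter thus reflects another estimate of the spread, not a larger rise. Other passes without the filter carry the same caution. Cubn had 569, 413 and 459 CPM in BCS-vacuolated cells, against 394, 255 and 382 CPM in normal cells (adjusted p = 0.276) and passed with the 2 groups alone (0.0387) and without the filter (0.00597).

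Genes for endosomal phosphoinositides and vacuole control, a list that also holds Rab5 and sorting nexin genes, showed few calls. Of 33 tested, 1 rose and 4 fell (median 0.17), shares near or under the background. The higher count lay between 0 (without BCS replicate 1) and 3 (without BCS replicate 2), and it was 2 without BCS replicate 3. The lower count was 1 without BCS replicate 1 and 2 without normal replicate 2 or 3. Pikfyve, the kinase that makes phosphatidylinositol 3,5-bisphosphate and whose inhibition swells endosomes, had 113, 118 and 119 CPM in BCS-vacuolated cells, against 119, 121 and 106 CPM in normal cells, with overlapping ranges (adjusted p = 0.929). Its partners Fig4 and Vac14 did not pass (adjusted p = 0.562 and 0.0972), and Vac14 passed without BCS replicate 3 (0.0482) and without the count filter (0.0414). Snx5, a sorting nexin of endosomal recycling and macropinocytosis, fell to 85.4, 94 and 88.5 CPM in BCS-vacuolated cells, against 153, 122 and 142 CPM in normal cells (1.56-fold lower, adjusted p = 0.00142). Of 29 autophagy genes 3 rose and 3 fell (median 0.077), and the counts were 1 and 1 without BCS replicate 1 or 3 or normal replicate 2 or 3, while 1 rose without normal replicate 1. Optn, an autophagy receptor, rose 2.91-fold from low counts, and Atg16l1, needed to attach LC3 to membranes, was 1.73-fold lower (adjusted p = 8.55e-04). Sqstm1, the receptor p62, had 75.9, 70.7 and 78.6 CPM in BCS-vacuolated cells, against 73.5, 84.7 and 75.4 CPM in normal cells. These did not separate (adjusted p = 0.834). Among small GTPases and macropinocytosis genes 10 of 38 rose and 6 fell (median 0.15), and the lower count was 1 without BCS replicate 1 and 2 without normal replicate 2. Arf6, which drives membrane traffic to the surface, rose 2.1-fold, Rhob, a GTPase of endosomes, 2.6-fold and Rab20, a GTPase of phagosomes and macropinosomes, 1.81-fold.

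Epithelial junction genes were counted in 3 lists. Of 22 tight junction and polarity genes 11 rose and none fell (median 0.76). The higher count was 7 without BCS replicate 1, and 1 member fell without BCS replicate 2. Cldn6, a claudin of early epithelia, had 84.5, 79.7 and 95.6 CPM in BCS-vacuolated cells, against 18.6, 13.2 and 14.4 CPM in normal cells. No BCS library came near a normal one (5.62-fold, log2 2.49 ± 0.17, SE; adjusted p = 3.53e-10). Ocln, occludin, had 83, 58.1 and 81.6 CPM in BCS-vacuolated cells, against 25.5, 25.3 and 26.9 CPM in normal cells (2.86-fold, adjusted p = 7.56e-08). The scaffold genes Tjp1 (ZO-1) and Cgn (cingulin) rose 1.62-fold and 2.42-fold, and the polarity genes Pard3 and Crb3 rose 1.53-fold and 2.92-fold. Keratins and desmosomal genes rose in 5 of 10 cases and none fell (median 1.10, and 0.69 without BCS replicate 2), and 5 rose in every fit that left out a library. Krt8 and Krt18 pair into the simple epithelial filament. Krt8 had 423, 272 and 450.1 CPM in BCS-vacuolated cells, against 120.3, 134 and 95.6 CPM in normal cells, and Krt18 had 257, 179 and 311 CPM in BCS-vacuolated cells, against 80.1, 64.2 and 56.5 CPM in normal cells. Replicate 2 was the lowest BCS library for both, and the rises were 3.28-fold and 3.72-fold (adjusted p = 2.19e-07 and 6.61e-08). These keratins have many near-identical copies in rodent genomes, and the counting of shared reads is not given in the sources used here. Jup, plakoglobin, rose 3.31-fold, and the desmosomal cadherins Dsc2 and Dsg2 rose 2.62-fold and 1.76-fold.

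Adherens junction and epithelial surface genes rose in 7 of 22 cases and none fell (median 0.46). Cdh1, E-cadherin, had 28.3, 27.7 and 28.8 CPM in BCS-vacuolated cells, against 11.3, 4.02 and 8.62 CPM in normal cells. The BCS libraries were nearly equal, and the normal ones spread wider without reaching them (3.51-fold, adjusted p = 1.17e-05). Its cytoplasmic partners Ctnna1 and Ctnnd1 rose 1.53-fold and 1.91-fold. Epcam, an epithelial adhesion protein, had 87.1, 51.8 and 93.1 CPM in BCS-vacuolated cells, against 31.9, 40.8 and 35.2 CPM in normal cells (2.14-fold, adjusted p = 1.32e-04), with replicate 2 at a position of 0.400. The membrane serine protease Prss8 (prostasin) and the inhibitor Spint1 rose 3.5-fold and 2.54-fold. Of 6 tested mesenchymal regulators and markers 4 rose and 1 fell (median 0.93), with 1 higher without BCS replicate 1 or normal replicate 3, 2 higher without normal replicate 2, and none lower without BCS replicate 3 or normal replicate 1. Vim, the filament of mesenchyme and of parietal endoderm, fell to 73.7, 66.4 and 65.1 CPM in BCS-vacuolated cells, against 121, 94.3 and 109 CPM in normal cells (1.58-fold lower, adjusted p = 0.0133). Snai1, a repressor of E-cadherin, moved the other way, with 13.9, 6.82 and 10.7 CPM in BCS-vacuolated cells, against 4.12, 5.75 and 3.33 CPM in normal cells (2.37-fold, adjusted p = 0.00790). Fn1, fibronectin, also rose (2.71-fold, adjusted p = 0.0152). Only 1 member of this list rose in every fit that left out a library. The call of Vim was lost without BCS replicate 3 (adjusted p = 0.0522) or normal replicate 1 (0.0655), and that of Snai1 without BCS replicate 1 (0.0653) or normal replicate 3 (0.0529).

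Of 18 genes of the basement membrane, the hallmark product of parietal endoderm, 10 rose and 1 fell (median 0.56). The count of higher members was 7 to 10 with any 1 library left out, and the lower one did not pass without BCS replicate 1 or 3 or normal replicate 1 or 3. Col4a2, a collagen IV chain, had 3118, 2572 and 2385 CPM in BCS-vacuolated cells, against 1123, 1068 and 1197 CPM in normal cells. All BCS libraries lay above all normal ones (2.38-fold, adjusted p = 6.77e-06). Its partner chain Col4a1, whose gene lies beside it and shares its promoter region, rose 1.52-fold, and that call was lost without BCS replicate 1 (adjusted p = 0.173) or normal replicate 2 (0.0683). The laminin chains Lamc1, Lamb2 and Lama5 rose 2.07-fold, 2.16-fold and 3.07-fold. Sparc, a collagen-binding protein of parietal endoderm, had 2207, 2253 and 1778 CPM in BCS-vacuolated cells, against 1187, 1174 and 1178 CPM in normal cells (1.76-fold, adjusted p = 2.78e-05). Nid2, which links laminin to collagen IV, had overlapping values (adjusted p = 0.514).

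Enzymes that modify collagen did not move as a block. Of 17 tested, 7 rose and 2 fell (median 0.26), 4 rose without normal replicate 3, and 1 fell without BCS replicate 1 or 3 or any 1 normal replicate. Plod1 and Plod3, lysyl hydroxylases, rose 4.35-fold and 2.47-fold, and Loxl2, a lysyl oxidase that crosslinks collagen IV, rose 4.15-fold. Plod1 had 298, 331 and 259 CPM in BCS-vacuolated cells, against 79.2, 52.5 and 72.1 CPM in normal cells (adjusted p = 7.56e-08). P3h2, a prolyl 3-hydroxylase of collagen IV, went down, with 93.5, 173 and 99.7 CPM in BCS-vacuolated cells, against 213, 230.1 and 218 CPM in normal cells. BCS replicate 2 lay between the others and the normal cells for P3h2 (position 0.292; 1.8-fold lower, adjusted p = 0.00313).

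Of 13 integrin genes, which encode receptors for matrix, 5 rose and none fell (median 0.59), and 5 or 6 did so with any 1 library left out. Itga5, the fibronectin receptor chain, had 47.9, 55.1 and 37.8 CPM in BCS-vacuolated cells, against 18.1, 13.4 and 14.5 CPM in normal cells (3.06-fold, adjusted p = 7.00e-07). Itga3 and Itga6, chains of laminin receptors, rose 2.17-fold and 1.75-fold, their partner Itgb1 rose 1.48-fold, and dystroglycan (Dag1) 1.5-fold. Of 13 fibrillar collagen and contractile genes 5 rose and none fell (median 0.20), all 5 of them actin-associated. These were Tagln, Cnn1, Cnn2, Tpm1 and Actn1, at 5.05-fold, 3.29-fold, 2.39-fold, 2.43-fold and 2.45-fold.

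Of 15 plasminogen and coagulation genes 5 rose and none fell (median 0.30). Plat, tissue plasminogen activator, which parietal endoderm is known to secrete, had 47.3, 24.1 and 72.8 CPM in BCS-vacuolated cells, against 2.87, 2.87 and 3.78 CPM in normal cells. Replicate 2 was the lowest BCS library, and all lay far above the normal ones (14.9-fold, log2 3.90 ± 0.63, SE; adjusted p = 9.13e-04). Plaur, the urokinase receptor, had 29.1, 22.5 and 32.2 CPM in BCS-vacuolated cells, against 5.92, 3.83 and 10.6 CPM in normal cells (4.04-fold, adjusted p = 1.26e-05). F2r, a thrombin receptor, rose 3.07-fold, and Procr, the protein C receptor, rose 6.34-fold from very low counts. Of 19 metalloproteases and inhibitors 3 rose and none fell (median 0.44), and 1 rose without BCS replicate 1. Timp3, an inhibitor bound to the matrix, had 22.2, 62.3 and 20.4 CPM in BCS-vacuolated cells, against 9.68, 11.5 and 10.4 CPM in normal cells. Here replicate 2 was by far the highest. The fitted rise was 3.36-fold (adjusted p = 0.00380), the log2 rise was 1.01 without it, and the adjusted p was 0.0849 with the 2 groups alone.

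Endoderm identity genes were counted by lineage. Among 26 parietal endoderm genes, several of them keratin and matrix genes given above, 13 rose and 3 fell (median 0.49). The share that fell was near the background. The lower count was 6 without BCS replicate 2 and 1 without BCS replicate 3 or normal replicate 1. Sox7, a parietal endoderm transcription factor, had 11.9, 8.14 and 11.5 CPM in BCS-vacuolated cells, against 4.84, 2.68 and 3.93 CPM in normal cells (2.72-fold, adjusted p = 8.58e-04). Pth1r, the receptor for parathyroid hormone-related protein, which drives parietal differentiation, fell to 173, 202 and 147 CPM in BCS-vacuolated cells, against 303, 324 and 311 CPM in normal cells (1.8-fold lower, adjusted p = 6.37e-05). Of 22 visceral endoderm and liver-type genes 5 rose and none fell (median 0.43), and 1 to 3 rose with any 1 library left out, the lowest count being without normal replicate 3. Mttp, which loads lipid onto apolipoprotein B, had 34.6, 9.9 and 37.1 CPM in BCS-vacuolated cells, against 1.61, 0.958 and 1.36 CPM in normal cells. All BCS libraries were above the normal ones, replicate 2 by less (position 0.597), and the fitted rise was 20.3-fold (adjusted p = 0.00294). Apob itself had 1 count over the 3 BCS libraries and 1 over the 3 normal ones. Hnf4a, a visceral endoderm transcription factor, was 1.62-fold higher (adjusted p = 0.0239), a call lost without BCS replicate 1 (0.0505) or 3 (0.0844) or normal replicate 1 (0.0729) or 3 (0.0855). Ttr and Apoa1, secreted products of mature visceral endoderm, had 0 counts in all 6 libraries. A 0 here says only that a gene is listed at 0, since some genes that every cell uses were also at or near 0. Rpl7a, a ribosomal protein gene, and Ndufa1, a complex I subunit gene, had 0 counts in these 6 libraries, and the ribosomal protein genes Rpl8 and Rps6 had 1 count each over the BCS libraries and 0 and 1 over the normal ones.

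Of 17 pluripotency and early embryo genes, 3 rose and 4 fell (median 0.18), and the lower count was 1 without normal replicate 3 and 2 without BCS replicate 1 or 3 or normal replicate 1 or 2. Pou5f1, which encodes OCT4 and which these precursor cells are known to express, fell to 71.5, 70.5 and 74.8 CPM in BCS-vacuolated cells, against 102, 118 and 133 CPM in normal cells (1.63-fold lower, adjusted p = 0.0105), a call lost without normal replicate 3 (0.065). Lin28a, an RNA-binding protein of early embryos, was 1.42-fold lower (adjusted p = 0.00621). Dnmt3l, a cofactor of de novo DNA methyltransferases, had 208, 72.9 and 234 CPM in BCS-vacuolated cells, against 47.1, 53.5 and 74.4 CPM in normal cells. Replicates 1 and 3 stood above all normal cells and replicate 2 lay within 2 CPM of the highest of them, so the groups overlapped and the 2.93-fold rise (adjusted p = 0.0102) rests on replicates 1 and 3. With the 2 groups fitted alone its adjusted p was 0.117.

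Markers of other cell types were summed per library. Of 18 fibroblast and feeder markers in the files 3 passed the count filter and none was called, and their summed level was 96.0 to 109 CPM in BCS-vacuolated cells and 107 to 112 CPM in normal cells. Of the 18, 7 were listed at 0 in all 6 libraries, among them Col1a2, Dcn, Lum and Postn. The summed level came from the other members. Some genes that every cell uses, given above, were also listed at 0. The 15 trophoblast markers in the files summed to 94.9 to 107 CPM in BCS-vacuolated cells and 62.1 to 73.7 CPM in normal cells. The factor Tead4, also present outside trophoblast, was the 1 of 4 tested that rose (1.54-fold). Of the 15, 6 were at 0, among them Cdx2, Hand1 and Gcm1. The 13 blood, immune and endothelial markers summed to 43.5 to 60.6 CPM in BCS-vacuolated cells and 61.9 to 64.4 CPM in normal cells. Of the 13, 5 were at 0, among them Ptprc, Cd34 and Hbb. Of 5 tested, 1 was higher (Tie1, 2.47-fold), and 1 was lower without BCS replicate 2. The 15 neuron and glia markers summed to 27.6 to 39.8 CPM in BCS-vacuolated cells and 33.4 to 39.9 CPM in normal cells. Of the 15, 8 were at 0, among them Snap25, Neurod1, Gfap and Olig2. Of 4 tested, 1 was lower (Tubb3, a neuronal tubulin, 2.3-fold), and 2 were lower without BCS replicate 2. The call of Tubb3 was lost without BCS replicate 1 (adjusted p = 0.061) or 3 (0.0506) or normal replicate 3 (0.0536). The 9 mesoderm markers in the files stayed under 1 CPM in sum in every library. The part of these markers in the results was not tested.

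Of 38 tested genes of glycolysis and the hypoxia response 24 rose and none fell (median 0.75). With any 1 library left out 22 to 25 rose, and 1 fell without BCS replicate 2. The median position of replicate 2 over 26 genes was 0.997. Slc2a1, the glucose importer, had 54.2, 76.5 and 33.9 CPM in BCS-vacuolated cells, against 16.8, 17.1 and 17.5 CPM in normal cells (3.2-fold, adjusted p = 6.35e-04). Gpi, Pfkl and Aldoa, enzymes of its first steps, rose 2.46-fold, 2.14-fold and 3.86-fold. Aldoa had 279.5, 235 and 224 CPM in BCS-vacuolated cells, against 73.1, 55.6 and 62.3 CPM in normal cells, a gap that no library bridged (adjusted p = 1.39e-09). Pgam1, Eno1 and Pkm in the lower part rose 1.43-fold, 1.37-fold and 1.4-fold, and Gapdh, Pgk1 and Ldha did not pass (adjusted p = 0.402, 0.344 and 0.407). Gapdh has processed copies in the genome, so its reads may be split. Slc16a3, the lactate exporter MCT4, had 214, 177 and 136 CPM in BCS-vacuolated cells, against 28.7, 28.9 and 26 CPM in normal cells (6.3-fold, adjusted p = 2.19e-07). Among hypoxia-inducible genes, Bnip3, a mitophagy receptor, rose 4.04-fold, Pdk1, which shuts pyruvate out of the mitochondrial cycle, 2.41-fold, the prolyl hydroxylase Egln1 2.25-fold and Vegfa 1.93-fold, whereas Car9 was near 1 CPM in both groups (adjusted p = 0.791). Gys1, glycogen synthase, was 4.61-fold higher, beside the 6.71-fold rise of the glycogen-degrading Gaa.

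Of 47 nuclear genes of the tricarboxylic acid cycle and oxidative phosphorylation 12 fell and 1 rose (median -0.23). The lower count was 6 without BCS replicate 1 or normal replicate 1 and 7 without BCS replicate 3 or normal replicate 2, and the higher count was 2 without BCS replicate 2. Ndufs1 and Ndufa10, subunits of complex I, fell, Ndufs1 to 44.7, 90.2 and 48.8 CPM in BCS-vacuolated cells, against 113, 134 and 108 CPM in normal cells. Replicate 2 stood between the groups (position 0.290), and the differences were 1.92-fold and 1.67-fold (adjusted p = 0.00249 and 4.54e-04). Sdhb of complex II was 1.67-fold lower and Uqcrfs1 of complex III 1.55-fold lower. The member that rose was Cs, citrate synthase, with 66.1, 77.2 and 71.4 CPM in BCS-vacuolated cells, against 40.0, 34.1 and 36.6 CPM in normal cells (1.94-fold, adjusted p = 4.27e-06). Of 13 mitochondrially encoded genes 5 rose and none fell (median 0.42), but 1 to 3 rose without BCS replicate 1 or 3 or any 1 normal replicate, the lowest count being without BCS replicate 3.

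Lipid synthesis was counted in 2 lists. Of 32 cholesterol genes 10 rose and 1 fell (median 0.21, and 0.12 without BCS replicate 2), and the lower count was 0 without BCS replicate 1 or 3 or normal replicate 1 or 2 and 2 without BCS replicate 2. Insig1, which holds the sterol sensor in the endoplasmic reticulum, had 273, 328 and 298 CPM in BCS-vacuolated cells, against 157, 188 and 163 CPM in normal cells (1.77-fold, adjusted p = 1.01e-04), and Srebf2, the sterol-regulated transcription factor, rose 1.45-fold. Of the enzymes, Cyp51 rose 1.54-fold, and Sqle and Idi1 did not pass (adjusted p = 0.108 and 0.419). Abca1, which exports cholesterol, also rose (2.03-fold). Of 28 fatty acid and lipid storage genes 10 rose and 2 fell (median 0.41, and 0.25 without BCS replicate 2), 6 rose without BCS replicate 2, and 1 fell without BCS replicate 1 or 3 or normal replicate 2. Fasn, fatty acid synthase, had 871, 873 and 715 CPM in BCS-vacuolated cells, against 231, 185 and 222 CPM in normal cells (3.85-fold, adjusted p = 7.75e-08). No library of either group reached the other's range. Srebf1, the factor that drives these genes, rose 2.21-fold, the desaturases Fads1 and Fads2 1.77-fold and 2.04-fold, and Lpin1, a phosphatidate phosphatase, 2.43-fold. Dgat1, which makes triglyceride, was 1.62-fold lower (adjusted p = 0.00628).

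Signalling targets were read by pathway. Of 27 immediate early genes 12 rose and 1 fell (median 0.88), and 2 fell without BCS replicate 2. Jund, an AP-1 subunit, had 118, 82 and 88.9 CPM in BCS-vacuolated cells, against 35.5, 44.1 and 35.4 CPM in normal cells (2.51-fold, adjusted p = 8.54e-07). Dusp1, a phosphatase of MAP kinases, rose 3.76-fold, and Atf3, a stress-induced factor, 3.07-fold. Fos and Egr1 had under 2.5 CPM in every library and did not pass (adjusted p = 0.523 and 0.276). Myc was the member that fell, to 7.12, 4.62 and 5.3 CPM in BCS-vacuolated cells, against 12.4, 16.1 and 13.2 CPM in normal cells (2.46-fold lower, adjusted p = 0.00193). Of 28 YAP and SRF targets 11 rose and none fell (median 0.35). Ctgf and Cyr61, secreted matricellular proteins induced by YAP, rose 6.51-fold and 3.18-fold, Ctgf having 477, 349 and 424 CPM in BCS-vacuolated cells, against 65.8, 71.9 and 54.6 CPM in normal cells. Amotl2, a YAP-binding protein, rose 2.04-fold, and Actb, an SRF target, 2.5-fold, while Ankrd1, another YAP target, had overlapping values (adjusted p = 0.796). Actb has processed copies in the genome, so its reads may be split.

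In the TGF-beta and BMP pathway 11 of 28 genes rose and 3 fell (median 0.48), and 1 fell without normal replicate 2. Ltbp1, which stores latent TGF-beta in the matrix, rose 2.59-fold, Nog, the BMP antagonist noggin, 3.57-fold, and Fstl3, an activin antagonist, 2.42-fold. Id2 and Id4 rose 2.95-fold and 1.8-fold, whereas Id3, from the same family of BMP-induced inhibitors of transcription factors, was 2.31-fold lower (adjusted p = 0.0102, and 0.0518 without normal replicate 2). Bambi, a pseudoreceptor, fell to 2.71, 4.84 and 3.1 CPM in BCS-vacuolated cells, against 12.7, 7.86 and 9.53 CPM in normal cells (2.77-fold lower, adjusted p = 0.00418). Bmper, a BMP-binding protein, was 2.48-fold lower (adjusted p = 8.38e-04).

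Wnt targets and regulators gave 1 higher and 2 lower of 20 tested (median 0.041), and without BCS replicate 2 the count of lower members was 4 and the median -0.28. Sfrp1, a secreted Wnt-binding protein, fell to 6.1, 9.35 and 5.82 CPM in BCS-vacuolated cells, against 34.1, 26.1 and 25.9 CPM in normal cells, with no overlap (3.99-fold lower, adjusted p = 7.20e-05). Lgr4, a receptor for R-spondin, was 1.69-fold lower, and the ligand Wnt11 rose 4.68-fold (adjusted p = 2.67e-04). Axin2, a general target of beta-catenin, had 6 counts over the BCS libraries (2, 0 and 4) and 0 over the normal ones, and did not pass (adjusted p = 0.170). Among FGF and receptor tyrosine kinase genes 6 of 30 rose and 3 fell (median 0.31), 3 rose without BCS replicate 1 or normal replicate 3, and 1 fell without BCS replicate 3 or normal replicate 2. The receptors Fgfr1, Kit and Ephb4 rose 2.13-fold, 1.65-fold and 1.86-fold. Irs2, an adaptor of insulin and IGF receptors that is not in this list, rose 5.96-fold (adjusted p = 7.56e-08). It had 52.5, 28.9 and 38.8 CPM in BCS-vacuolated cells, against 5.56, 7.86 and 6.65 CPM in normal cells.

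In the IGF and imprinted list 7 of 21 rose and none fell (median 0.31). The count was 3 or 4 when any 1 BCS replicate was left out or without normal replicate 2 or 3. Without BCS replicate 2, 4 rose and 3 fell, and the median was 0.022. Igf2bp2, an RNA-binding protein of IGF2 messages, had 55.7, 30.2 and 56.8 CPM in BCS-vacuolated cells, against 18.5, 12.8 and 15.4 CPM in normal cells (3.04-fold, adjusted p = 1.47e-05). Peg3, an imprinted zinc finger gene, had 106, 211 and 89.1 CPM in BCS-vacuolated cells, against 47.7, 42.9 and 38.1 CPM in normal cells (3.17-fold, adjusted p = 1.94e-04). BCS replicate 2 was the highest for Peg3 and the lowest BCS library for Igf2bp2 and Igf2r. Igf2 itself stayed at or under 1.15 CPM in all 6 libraries (adjusted p = 0.678).

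Growth and cell cycle genes were counted in several lists. Of 46 G1/S and replication genes 9 fell and 1 rose (median -0.21), and 6 to 10 fell with any 1 library left out. Ung, which removes uracil from DNA, was 1.89-fold lower, Ccne1, cyclin E1, 1.62-fold lower and Mcm5, of the replicative helicase, 1.6-fold lower (adjusted p = 0.00156). The member that rose was Uhrf1, which recruits DNMT1 to replicated DNA, with 97.7, 124 and 102 CPM in BCS-vacuolated cells, against 52.7, 28.6 and 38.3 CPM in normal cells (2.71-fold, adjusted p = 3.07e-06). Dnmt1 rose with it (1.89-fold, adjusted p = 1.12e-04). Of 46 mitosis genes 6 rose and 3 fell (median -0.016, and 0.079 without BCS replicate 2), 3 rose without normal replicate 1, and none fell without BCS replicate 1 or normal replicate 1 or 2. Cdc20 and Espl1, which start anaphase, rose 2.34-fold and 1.95-fold, and Top2a rose 1.82-fold. Of 28 cell cycle inhibitors and p53 targets 8 rose and none fell (median 0.37), and all 8 rose in every fit that left out a library. Without BCS replicate 2, 1 member fell. Cdkn1a and Cdkn1b, the inhibitors p21 and p27, rose 1.91-fold and 1.67-fold, Cdkn1a having 64.5, 95.1 and 65.6 CPM in BCS-vacuolated cells, against 36.6, 46.8 and 35.1 CPM in normal cells (adjusted p = 0.00244). Ccng2, an atypical cyclin induced in arrested cells, and Pmaip1, a p53 target, rose 2.77-fold and 2.49-fold, while Mdm2, another p53 target, had overlapping values (adjusted p = 0.166).

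Of 63 cytosolic ribosomal protein genes 12 fell and none rose (median -0.20), with 7 lower without BCS replicate 1. Without BCS replicate 2, 15 fell and 2 rose. Rplp0 had 919, 967 and 1105 CPM in BCS-vacuolated cells, against 1596, 1555 and 1548 CPM in normal cells (1.57-fold lower, adjusted p = 2.71e-04), with no overlap. These genes have processed copies, so single members are uncertain. Of 30 proteasome genes 6 fell and none rose (median -0.22), and 2 fell without BCS replicate 1 or normal replicate 1 or 3. In the amino acid supply list 8 of 38 fell and 3 rose (median -0.11), and 5 fell without BCS replicate 1 or 2 or normal replicate 1. Psat1, of serine synthesis, was 2.03-fold lower and Slc43a2, a carrier of neutral amino acids, 3.01-fold lower. The glutamine importer Slc38a2 had 197, 182 and 215 CPM in BCS-vacuolated cells, against 80.5, 70.5 and 80.0 CPM in normal cells (2.57-fold, adjusted p = 7.75e-08).

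Interferon and antigen presentation genes rose in 6 of 18 tested cases and fell in 2 (median 0.66). The share that fell was near the background. Stat2, a transcription factor of the type I interferon response, had 20.2, 29.9 and 18 CPM in BCS-vacuolated cells, against 6.99, 5.37 and 4.99 CPM in normal cells, 3.95-fold higher (adjusted p = 7.82e-07). Its groups did not overlap. Ifitm1, a membrane protein that limits viral entry, was 2.81-fold lower, and Tap1 and Tapbp, which load peptides on MHC class I, rose 1.98-fold and 1.95-fold.

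Of the lists shown, genes with neuronal associations had the largest share of lower members, 7 of 24 with none higher (median -0.71), and 5 to 8 fell with any 1 library left out. The list was written with earlier results of these data known, and Pllp, Reep1, Ngfr and Sh3gl3 are also among the 20 lowest differences. Its rank is therefore no further evidence. In the separate list of neuron and glia markers given above, 1 of 4 tested was lower. Without BCS replicate 2, 8 fell and 1 rose, and the median was -1.34. Stmn2, a microtubule-binding stathmin, had 18.3, 75.8 and 18.1 CPM in BCS-vacuolated cells, against 175, 176 and 174 CPM in normal cells. Normal libraries were nearly equal and BCS replicate 2 lay between them and the other BCS libraries (position 0.372). It was 4.61-fold lower in BCS-vacuolated cells (log2 -2.20 ± 0.51, SE; adjusted p = 0.00916), -3.27 on the log2 scale without replicate 2, and its adjusted p was 0.107 with the 2 groups alone. Pllp, plasmolipin of myelin and epithelial membranes, had 3.73, 11.3 and 3.49 CPM in BCS-vacuolated cells, against 25.8, 23 and 24.6 CPM in normal cells (3.82-fold lower, adjusted p = 3.55e-04; log2 -2.76 without replicate 2). Ngfr, the p75 neurotrophin receptor, and Reep1, which shapes the endoplasmic reticulum, were 3.03-fold and 3.2-fold lower (log2 -2.22 and -2.53 without replicate 2). Sh3gl3, an endophilin, fell to 15.4, 23.3 and 17.6 CPM in BCS-vacuolated cells, against 35.1, 43.3 and 58.7 CPM in normal cells (2.42-fold lower, adjusted p = 6.63e-05).

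Replicate 2 did not differ from the other BCS replicates by the same amount everywhere. Its median position, over the genes of a list called without it, was 1.02 for lysosomal proteases (7 genes), 0.999 for glycosidases (8), 1.06 for basement membrane (11) and 0.998 for immediate early genes (13). It was 0.372 for neural-associated genes (9 genes), 0.373 for collagen processing enzymes (9), 0.365 for pluripotency genes (7), 0.315 for mitochondrially encoded genes (6) and 0.284 for the IGF and imprinted list (7). The genes of a list share the library, so these medians describe replicate 2 and carry no test. In some genes replicate 2 lay beyond the others. Ctsd, the aspartyl protease cathepsin D, had 69.6, 163 and 64 CPM in BCS-vacuolated cells, against 44.3, 48.3 and 42.6 CPM in normal cells. Its 2.2-fold rise (adjusted p = 0.00608) was 0.57 on the log2 scale without replicate 2, and its adjusted p was 0.13 with the 2 groups alone.

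**Figure D4:**
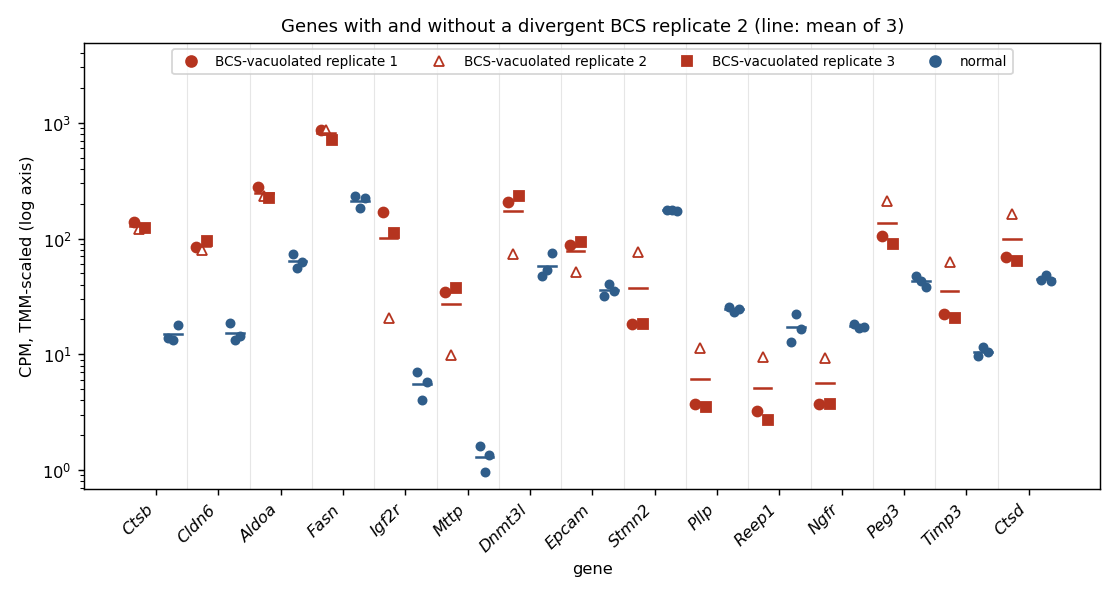
CPM (log axis) of 15 genes in BCS-vacuolated libraries (red; open triangles are replicate 2) and normal libraries (blue), with lines at the means. Replicate 2 lies with the other BCS replicates for Ctsb, Cldn6, Aldoa and Fasn, between the groups for Igf2r, Mttp, Epcam, Stmn2, Pllp, Reep1 and Ngfr, near the highest normal library for Dnmt3l, and above the other BCS replicates for Peg3, Timp3 and Ctsd.

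A direct test between BCS-vacuolated and CHIR99021-vacuolated unsorted cells called 1522 genes (13.2%), 851 higher (7.40%) and 671 lower (5.83%) in BCS-vacuolated cells. The count was 767 without BCS replicate 1, 999 without BCS replicate 3, and 873 or 828 without CHIR99021 replicate 1 or 2. Over all lysosomal lists, again without the V-ATPase genes, 42 of 100 were higher and 1 lower than with CHIR99021. The lower member was Tfeb, with 29.8, 31.5 and 19.5 CPM in BCS-vacuolated cells, against 38.4, 40.7 and 47.1 CPM in CHIR99021-vacuolated cells (1.56-fold lower, adjusted p = 0.0260), a call lost without BCS replicate 3 (0.166) or CHIR99021 replicate 2 (0.0646) or 3 (0.107). Tfec did not pass (adjusted p = 0.128), but was higher than with CHIR99021 when the 2 groups were fitted alone (0.0178). It also passed without the count filter (1.68e-05), with the caution given for Lrp2. Ctsb had 138, 122 and 124 CPM in BCS-vacuolated cells, against 36.4, 42.6 and 46.7 CPM in CHIR99021-vacuolated cells (3.05-fold, adjusted p = 7.26e-08). Lgmn had 64.4, 48.9 and 57.2 CPM in BCS-vacuolated cells, against 12.7, 13.1 and 13.5 CPM in CHIR99021-vacuolated cells (4.32-fold, adjusted p = 1.88e-05). Cyr61, Ctgf and Jund were 3.32-fold, 3.52-fold and 2.46-fold higher than with CHIR99021. Mttp was 15.5-fold higher (adjusted p = 0.00560) and Dnmt3l 7.53-fold higher (adjusted p = 3.63e-04).

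For other genes no difference between the vacuolated cells was called. Krt8 had 423, 272 and 450.1 CPM in BCS-vacuolated cells, against 514, 475 and 473 CPM in CHIR99021-vacuolated cells (adjusted p = 0.164). Cldn6 (adjusted p = 0.200), Cdh1 (0.606), Plod1 (0.191) and Sfrp1 (0.763) also did not pass, which does not show that they are alike. Lower with BCS than with CHIR99021 were Epha4, an ephrin receptor (6.46-fold, adjusted p = 1.77e-06; log2 -3.29 without BCS replicate 2), Lgr4 (2.47-fold, 1.04e-06) and Psat1 (2.55-fold, 2.39e-05). Axin2 had 6 counts with BCS and was lower than with CHIR99021 (0.339, 0 and 0.517 CPM with BCS, against 1.54, 1.72 and 1.64 CPM with CHIR99021; adjusted p = 0.0366), a call lost without BCS replicate 1 (0.105) or 2 (0.116) or any 1 CHIR99021 replicate (0.0798 to 0.0934), and in the Wnt list 2 of 20 genes were higher and 5 lower with BCS.

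**Figure D5:**
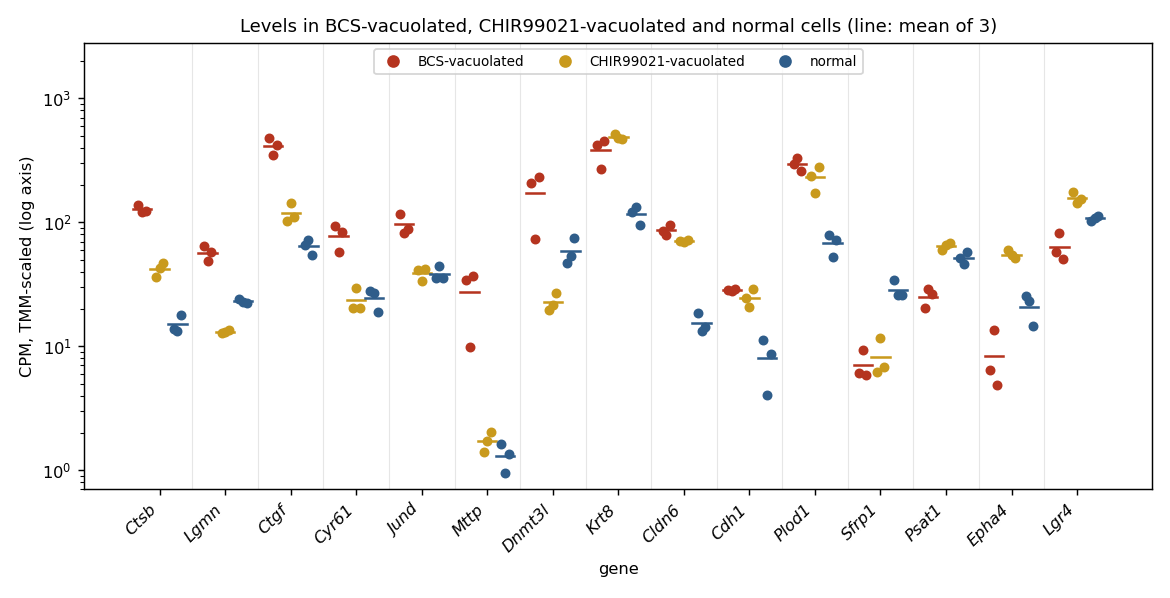
CPM (log axis) of 15 genes in BCS-vacuolated (red), CHIR99021-vacuolated unsorted (yellow) and normal libraries (blue), 3 each, with lines at the means. From Ctsb to Dnmt3l the BCS points lie above the CHIR99021 points, for Psat1, Epha4 and Lgr4 they lie below them, and for Krt8, Cldn6, Cdh1, Plod1 and Sfrp1 no difference was called.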

How the data were processed

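The deposited files hold raw counts of reads per gene symbol, made by the authors with bcl2fastq, Trimmomatic 0.38 and STAR 2.6.1 on build rn6, per the submitters' processing notes; the annotation release and the treatment of reads with several matches are not given in the sources used here. RNA was depleted of ribosomal RNA and sequenced from a directional kit, per the labels' protocols. The strand-specific column was used. The opposite strand held 2.11 to 2.63% of the counts of both strands together in the 6 libraries.

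In R 4.3.3 with edgeR 4.0.16, 11503 of 28695 genes passed edgeR's filter (minimum count 10, by group). Libraries were scaled by TMM, and the 18 libraries entered 1 robust quasi-likelihood fit of 6 group means, which leaves 12 residual degrees of freedom. P-values were adjusted by Benjamini-Hochberg over all tested genes, with 0.05 as threshold. On simulated data for this comparison the test called 30%, 92%, 100% and 100% of 50 genes changed 1.5-, 2-, 4- and 8-fold, and 5 of 11303 unchanged genes. The simulation started every group from the normal means, held no divergent replicate and changed none of the least expressed genes. It also gave each gene the spread fitted to its level, alike in all groups. These rates therefore do not cover genes that vary more than that, or a group with a replicate such as BCS replicate 2. Alternatives were DESeq2 1.42.0, no filter, the 2 groups alone, unstranded counts, the 2 dominating genes left out, a replicate term, a passage term and each library left out.

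The comparison, its 55 gene lists (1197 different genes tested) and the rules for naming were chosen with earlier results of these data known. Genes named are the 20 highest and 20 lowest log2 differences among called genes whose libraries did not overlap and whose mean log2 CPM reached 3, the 4 smallest adjusted p per list, a fixed set, and other members beside their list's count; not all of them are printed, and some list members are not reported here. No list was tested as a set. Promoter sequences are from RefSeq, build GRCr8, and were not placed on rn6.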

Additional observations from a re-analysis of the deposited data

How the results depend on the processing

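The number of genes that differed between BCS-vacuolated and normal cells was 2383, and 2282 to 2540 under the alternatives that kept all libraries: 2540 with DESeq2, 2335 without the count filter, 2407 with the 2 groups fitted alone, 2299 with unstranded counts, 2319 without the 2 dominating genes and 2360 with passage as a covariate. With 1 library left out it was 1293 to 2608, the lowest without BCS replicate 1. Of the 2383 genes, 1037 were called under all 13 alternatives and 1054 under every left-out library. Against CHIR99021-vacuolated cells, 1522 genes were called, 1451 to 1891 with all libraries and 767 to 1950 with 1 library left out. Ctsd against CHIR99021 lay between -0.449 and 0.358 on the log2 scale with 1 library left out, the lowest without BCS replicate 2 (adjusted p = 0.0402). With the replicate number as a block, 2282 and 1451 genes were called. The labels do not say that a number marks shared samples, and deviations of same-numbered BCS and normal libraries correlated at 0.0746, 0.0487 and 0.0376, all under 0.1 although each library correlated best with its own number, so the samples were not treated as paired. The low depth of normal replicate 2 (4080629 counts) limits what can be said of genes with few counts.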

Other observations

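Other gene lists gave the following counts, to be read against the 11.2% of tested genes that were higher and the 9.51% that were lower. In the list of ion and water transport 6 of 33 rose and 4 fell in BCS-vacuolated cells (median log2 difference 0.13), and 1 fell without BCS replicate 1. Car4, a membrane-bound carbonic anhydrase, had 10, 19 and 11 counts in BCS-vacuolated libraries and 0 in each normal library, at least 10.2-fold higher with a floor of 3 counts over the group. Slc12a4, a potassium-chloride cotransporter, had 50.3, 48.6 and 49.9 CPM in BCS-vacuolated cells, against 26.5, 26.3 and 30.1 CPM in normal cells (1.79-fold, adjusted p = 3.99e-04). Of 41 NRF2 and metal handling genes 4 rose and 3 fell (median 0.16), and 1 fell without BCS replicate 1 or any 1 normal replicate. Hmox1, heme oxygenase 1, rose 2.1-fold and Atp7b, a copper exporter, 3.08-fold, while Sod1, a copper-dependent superoxide dismutase, was 1.6-fold lower (adjusted p = 0.00145).

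Of 15 microvillus and apical cortex genes 4 rose and none fell (median 0.21), with 1 higher without BCS replicate 2 and 2 when any 1 normal replicate was left out. Podxl, podocalyxin of the apical surface, had 413, 398 and 396 CPM in BCS-vacuolated cells, against 230.3, 229 and 228 CPM in normal cells (1.76-fold, adjusted p = 6.37e-05). Eps8l2, an actin regulator of stereocilia that is not in this list, rose 8.14-fold (adjusted p = 2.05e-07). It had 53.4, 35.3 and 46.6 CPM in BCS-vacuolated cells, against 5.56, 6.9 and 4.23 CPM in normal cells. Of 7 membrane serine proteases and Kunitz inhibitors 3 rose and none fell (median 0.63). Of 30 chromatin and DNA methylation genes 8 rose and 2 fell (median 0.23), 5 rose without BCS replicate 1 or 3 or normal replicate 3, and 1 fell without BCS replicate 1 or 3 or any 1 normal replicate. Tet2, which oxidises methylcytosine, rose 1.8-fold, and Tdg, which excises the oxidised bases, was 1.46-fold lower (adjusted p = 0.00367 and 0.00245). Of 30 chaperone genes 5 rose and 3 fell (median -0.026), 2 rose without BCS replicate 1, 3 rose without normal replicate 2, and 1 fell without BCS replicate 1. Calr, a calcium-binding chaperone, rose 1.56-fold, and Dnajb11, a cochaperone in the same compartment, was 1.5-fold lower. Of 20 endoderm transcription factors 5 rose and 2 fell (median 0.30), and 2 or 3 rose without BCS replicate 1 or any 1 normal replicate, while 0 or 1 fell without BCS replicate 1 or 3 or any 1 normal replicate. Of 13 complement and innate genes 2 rose and 1 fell (median 0.13), and 0 or 1 rose and none fell with any 1 library left out.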
